A study of Oryza sativa with 45 samples.

Results

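Rice seedlings of generation F8 whose F6 ancestors had been salt-stressed were compared with seedlings of the same generation and line without such ancestors. The comparison was made in 2 lines, the control line C and the negative segregant NSb, with line as a factor. It covered 54868 of the 54922 probe sets on the array, called transcripts here, and 12 of the 45 arrays of the study. The 54 probe sets left out, consecutive in number and without gene names, shifted between sets of arrays and are described first.

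All plants were Oryza sativa ssp. japonica cv. Nipponbare. C was seed-derived and never transformed. NSb descended from the transgenic line Tb, which carried the transcription factor OsICE1 under the maize ubiquitin promoter, and had lost the transgene by segregation, so that its ancestors, unlike those of C, went through transformation and in vitro culture. The transgenic line Ta is used only beside these lines. It came from a transformation event other than that behind NSb, and carries 1 copy of OsICE1 fused to a TAP tag under the same promoter. The F8 groups without salt history are called C and NSb. Those from F6 ancestors grown for 12 days at a salinity of 12 dS/m are called Csalt and NSbsalt. None of the F8 seedlings met salt in its own growth. They were raised in Yoshida nutrient medium and collected whole at 15 days of age. Each group had 3 pools of 10 seedlings, 1 array per pool. Each line is a single lineage, so the lines compared are 2 in number however many pools were taken. Whether the pools came from separate ancestor plants is not stated. Values are RMA signals on the log2 scale, and a difference of 1 is a doubling of the signal.

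High salinity lowers the water potential around the root and brings sodium into the shoot. Rice seedlings answer with abscisic acid signalling, protective LEA proteins and dehydrins, compatible solutes such as proline, and changes in sodium, potassium and water transport. A memory of stress across generations would need a carrier in the germ line, and DNA methylation, histone marks and small RNAs are the carriers most often considered in plants. The F8 arrays ask how much of the salt response is found 2 generations after the plants that met the salt.

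The arrays fell into 2 sets that nearly coincided with salt history. The mean of the 54 excluded probe sets was between 4.92 and 5.30 on all 9 F8 arrays with salt history (Csalt, NSbsalt and the transgenic line Ta alike), and at most 4.14 on 8 of the 9 arrays without it. NSb replicate 3, without salt history, read 5.07 and stood with the other set. On the arrays of F4 and F6 the same mean lay between 4.65 and 5.44. In C the set of arrays and salt history therefore cannot be told apart, and in NSb a single array crosses them. Key results are given with and without that array. The labels give no scan or hybridisation batch. Samples were grouped as labelled. Whether that array carries the wrong label was not tested, and a wrong label would change every NSb value. On it LOC_Os04g56430 (3.10) and the probe set 15849880 (6.85) read like the other NSb pools, and DTC1 (4.63) and the probe set 15955424 (6.14) like NSbsalt. LOC_Os04g56430 and 15849880 have the smallest p-values of a fit that counts this array as NSb, which favours such agreement. DTC1 and 15955424 were also picked by their results, so these values cannot decide the label.

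**Figure D1:**
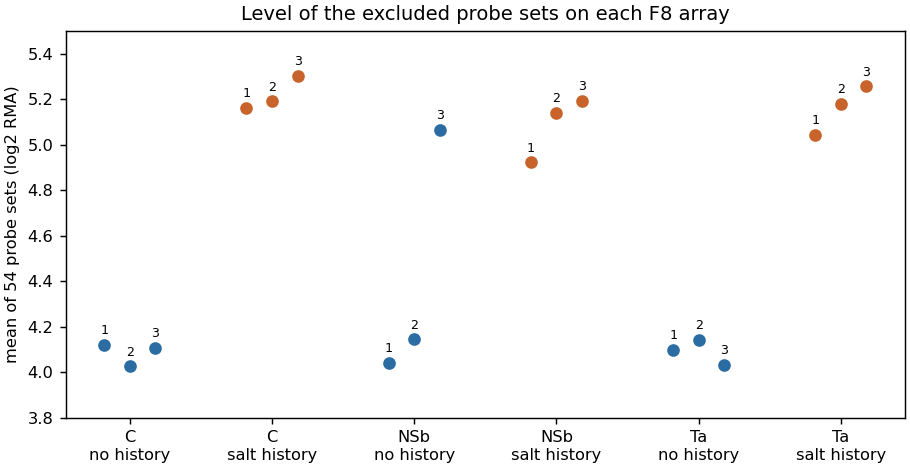
Mean log2 RMA value of the 54 excluded probe sets on each of the 18 arrays of F8 (vertical axis), by line and salt history of the F6 ancestors (horizontal axis), blue without and orange with salt history, each point 1 pool with its replicate number. The points with salt history lie at 4.92 or above, and all points without it at 4.14 or below except NSb replicate 3 at 5.07.

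Apart from those probe sets the arrays were very alike. Correlations across transcripts were 0.986 to 0.991 between pools of a group and 0.987 to 0.99 between pools with and without salt history in the same line. Array medians were 4.53 to 4.57, and values well below them may be background, since RMA signals carry no detection call. Shoot markers (8 photosynthesis transcripts) averaged 8.36 to 8.54 on arrays without salt history and 8.42 to 8.67 with it. Root markers (21) averaged 4.34 to 4.49 and 4.35 to 4.47, and seed storage and germination markers (19) averaged 3.11 to 3.21 and 3.09 to 3.23. The label of whole seedlings held for shoot tissue. Only 9 of the 21 root markers and 3 of the 19 seed markers were above the median signal. In whole seedlings, fewer cells of a type and less RNA per cell cannot be told apart.

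No transcript was differentially-expressed between seedlings with and without salt history. In the mean of both lines 0 of 54868 transcripts (0%) passed an adjusted p of 0.05 by limma's moderated test with Benjamini-Hochberg adjustment, and the smallest adjusted p was 0.197. At an unadjusted p under 0.05 there were 3152 (5.74%), 1544 higher and 1608 lower in seedlings with salt history. The counts in each line were also 0 (0%), with smallest adjusted p-values of 0.612 in C and 0.1 in NSb, and with 2709 (4.94%) and 3505 (6.39%) transcripts at an unadjusted p under 0.05. The effect of salt history differed between NSb and C in 0 transcripts (0%), with 3014 (5.49%) at an unadjusted p under 0.05. Without NSb replicate 3, 1 transcript passed in the mean of both lines and 1 in NSb, the unnamed probe set 15822570 in both cases. That probe set read 6.39 and 5.94 in NSb replicates 1 and 2, and 4.15, 4.03 and 4.45 in NSbsalt. The array left out read 4.38, like NSbsalt. The mean effect of 15822570 was -1.25 without that array and 0.53 with the set of arrays as a term.

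The effects were small as well as uncalled. The median size of the salt history effect was 0.066 on the log2 scale in the mean of both lines, 0.089 in C and 0.097 in NSb, with effects from -1.38 to 1.26 in the mean. Effects over 1 in size numbered 7, 31 and 80. The median 95% interval reached 0.19 to either side of the estimate in the mean of both lines and 0.27 in a single line. For 54469 transcripts (99.3%) the interval of the mean effect lay wholly between -1 and 1, and for 54848 it excluded a 3-fold change. These intervals are not adjusted for the number of transcripts. Like the effects, they hold the sum of salt history and any shift between the sets of arrays. Salt itself, measured by the same test on the F6 arrays, called 3907 transcripts in C and 6676 in NSb.

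The effects in the 2 lines were nearly uncorrelated. Across all transcripts the salt history effect in C and that in NSb had a correlation of 0.016, whereas the salt effects in F6 had 0.708. Both are descriptions over transcripts that share arrays, with no replicate error of their own.

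**Figure D2:**
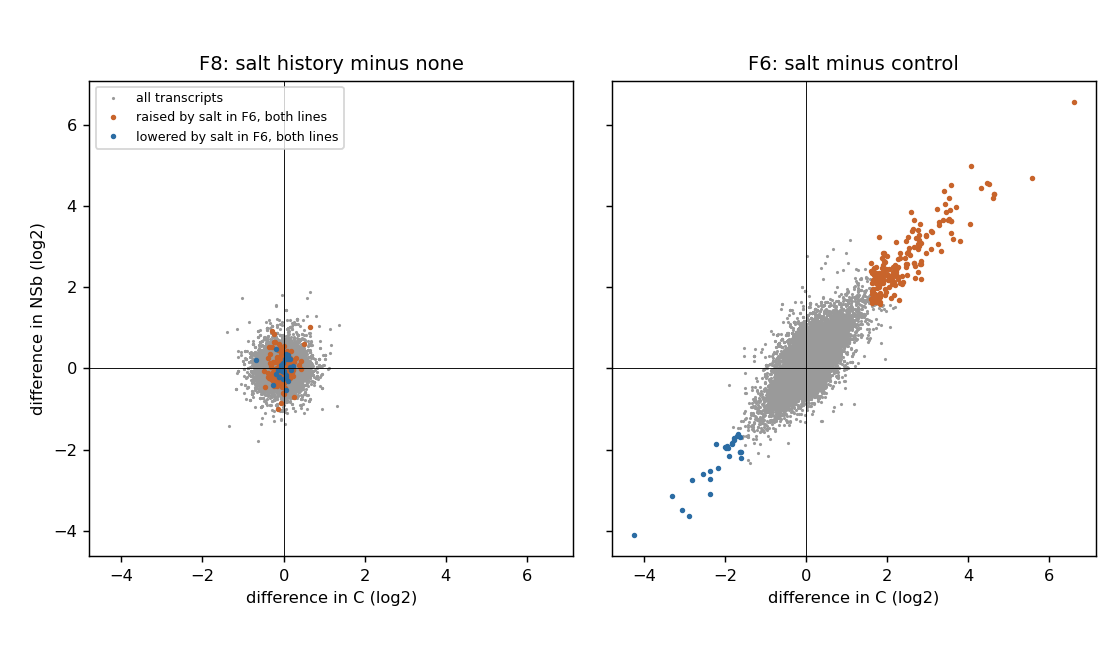
Difference in C (horizontal axis) against difference in NSb (vertical axis), log2, for each of the 54868 transcripts, on the left for salt history in F8 and on the right for salt in F6, on the same axes. Orange and blue points are the 178 transcripts raised and the 27 lowered by salt at least 3-fold in both lines in F6. They lie apart in F6 by that choice, and lie around 0 in F8 with the other transcripts.

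The transcript nearest to a call in the upward direction encoded a cysteine-rich receptor-like protein kinase, LOC_Os04g56430 (chr4:33456175-33457245, plus strand, MSU rice release 6). Kinases of this family sit in the plasma membrane and take part in responses to pathogens and stress. Its signal was 4.0, 3.86 and 3.96 in C and 4.77, 4.34 and 4.68 in Csalt. In NSb it was 3.27, 3.69 and 3.10, and in NSbsalt 4.33, 4.28 and 4.53. All 6 pools with salt history lay above all 6 without it, which was so for 53 transcripts (0.0966%). The effect was 0.84 ± 0.11 (SE, n = 6 pools against 6), 0.65 in C and 1.03 in NSb, with an adjusted p of 0.197 by limma. NSb replicate 3, of the same set of arrays as the pools with salt history, had the lowest value of the 12, and against that array alone NSbsalt was 1.28 higher. The effect was 0.78 without it. In F6 the transcript rose under salt by 3.11, and in Ta its salt history effect was 0.47. When the arrays of Ta were added to the estimate of the spread, the adjusted p fell to 0.00935.

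The transcript nearest to a call downward was probe set 15849880, which has no gene name in the annotation used. It read 6.48, 6.69 and 6.44 in C against 5.90, 5.63 and 5.84 in Csalt. It read 6.88, 6.51 and 6.85 in NSb against 6.16, 5.84 and 6.12 in NSbsalt. The groups of 6 did not overlap, as for 54 transcripts in this direction (0.0984%). The effect was -0.73 ± 0.092 (SE, n = 6 against 6) with an adjusted p of 0.197, nearly equal in C (-0.75) and NSb (-0.71) and -0.70 without NSb replicate 3. Salt in F6 had lowered it by -1.30. In Ta the effect was 0.03, and with the arrays of Ta in the estimate of the spread the adjusted p was 0.0349. These were the only 2 transcripts called for the mean effect in that fit.

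The third by p-value, LOC4326925, was not called and had like effects in every line. It read 4.31, 4.23 and 4.64 in C, 5.0 in each pool of Csalt, 4.83, 4.56 and 5.02 in NSb, and 5.58, 5.69 and 5.21 in NSbsalt. C and Csalt did not overlap, nor did NSb and NSbsalt, although NSb replicate 3 lay above the Csalt pools. The effect was 0.65 ± 0.11 with an adjusted p of 0.781, and 0.59 in Ta. The other 7 transcripts among the 10 with the smallest p had effects from -0.57 to 0.50 in the mean of both lines and the same adjusted p of 0.781, and 4 of them have no gene name.

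**Figure D3:**
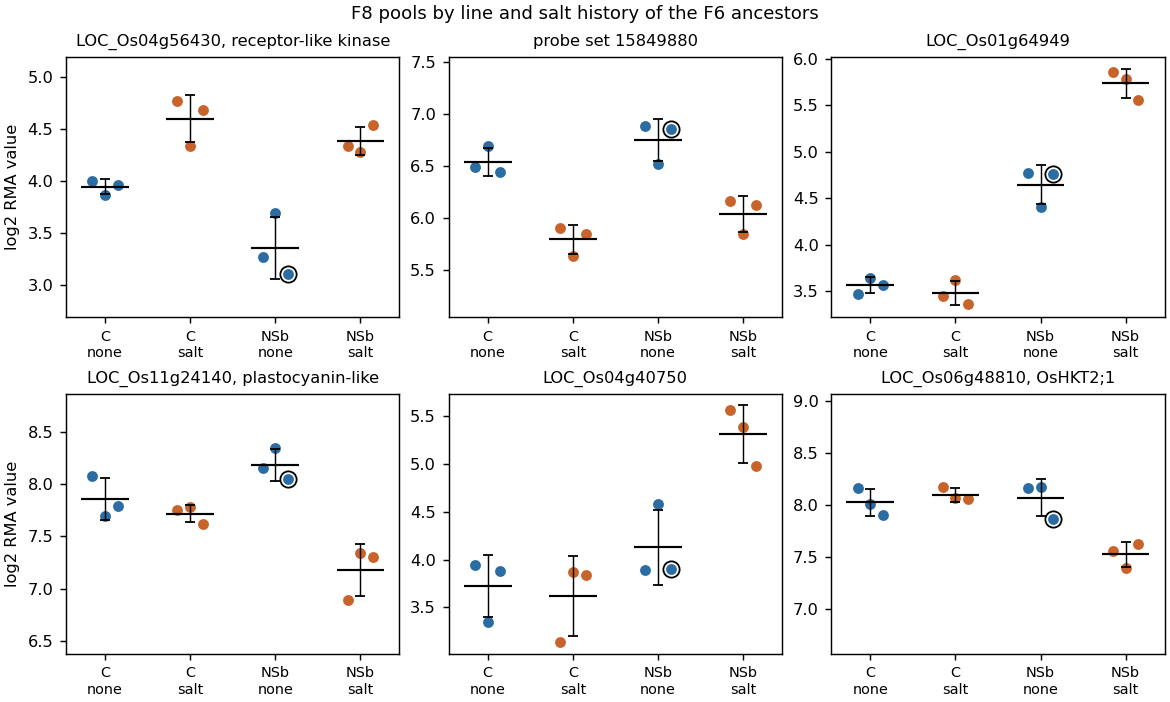
Log2 RMA values (vertical axes) of 6 transcripts in the 12 pools of F8, by line and salt history of the F6 ancestors (horizontal axes). Points are pools, long bars are group means, whiskers are ± 1 SD (n = 3), and the ring marks NSb replicate 3. The top left and top middle transcripts separate in both lines, and the other 4 separate in NSb and not in C.

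Several of the largest differences were those of NSb. LOC_Os01g64949, an expressed protein of unknown function (chr1:37694034-37695442, minus strand), read 4.78, 4.40 and 4.76 in NSb and 5.86, 5.78 and 5.56 in NSbsalt. In C it read 3.47, 3.65 and 3.57, and in Csalt 3.45, 3.62 and 3.36. The pools of NSb with and without salt history did not overlap, and those of C did. The NSb effect was 1.09, that in C -0.08, with an adjusted p of 0.1 in NSb and of 0.283 for the difference between the lines. This transcript was called in NSb when low signals were filtered out (adjusted p = 0.0447) and when the arrays of Ta were added (adjusted p = 0.00827). Its NSb effect was 1.14 without NSb replicate 3 and 0.98 against that array alone.

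LOC_Os11g24140 encodes a plastocyanin-like protein, a family of small copper-binding proteins that includes cell surface members. Salt in F6 had raised it by 2.56. In F8 it read 8.16, 8.35 and 8.05 in NSb and 6.89, 7.35 and 7.30 in NSbsalt, against 8.08, 7.70 and 7.79 in C and 7.75, 7.78 and 7.62 in Csalt. NSbsalt lay below every other pool, the opposite direction to that under salt. The NSb effect was -1.01 with an adjusted p of 0.347, and the difference between the lines had an adjusted p of 0.817. Without NSb replicate 3 the NSb effect was -1.08, and against that array alone -0.87. The hypothetical protein LOC_Os10g17750 read 7.01, 6.55 and 6.13 in NSb and 5.39, 5.32 and 5.20 in NSbsalt. Its NSb effect was -1.26 with an adjusted p of 0.347, whereas the pools of C and Csalt all lay between 5.28 and 5.71. Without NSb replicate 3 the NSb effect was -1.48, and against that array alone -0.82. In the mean of both lines the effect was -0.66, and -0.12 with the set of arrays as a term.

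The fifth of the smallest p-values in NSb was that of LOC4352160, at -0.67 in NSb and -0.12 in C. In C the 5 transcripts with the smallest p were LOC4339370 (0.56 in C, 0.18 in NSb), LOC4342969 (0.55 and -0.29), and the unnamed probe sets 15785125 (-0.71 and 0.34), 15783977 (-0.90 and -0.09) and 15783127 (-0.82 and 0.38). For 3 of the 5 the sign differed between the lines, and these 3 were also among the 5 with the smallest p for the difference between the lines, with adjusted p-values from 0.252 to 0.361.

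Of the 5 loci that the study names for salt history on the arrays, the annotation used here paired 1 with a probe set, LOC_Os04g40750 (chr4:24002780-24003771, plus strand), an expressed protein of unknown function. It was chosen by the study on these arrays, so its values are a description. They were 3.94, 3.35 and 3.88 in C, 3.14, 3.87 and 3.84 in Csalt, 3.90, 4.58 and 3.90 in NSb, and 5.57, 5.39 and 4.98 in NSbsalt. The 3 pools of NSbsalt were the highest of the 12, and C and Csalt overlapped. The effect was 1.18 in NSb (adjusted p = 0.416), -0.10 in C and -1.99 in Ta. Without NSb replicate 3 the NSb effect was 1.07, and against that array alone 1.41. For Ta against the mean of C and NSb the transcript was called when Ta replicate 1 was left out (adjusted p = 0.029 by limma).

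The transcripts that salt itself had changed in F6 were then followed in F8. Taken from the F6 arrays alone, 178 transcripts (0.324%) were raised and 27 (0.0492%) lowered at least 3-fold in both C and NSb at an adjusted p of 0.05. No F6 array enters the F8 comparison. The raised transcripts had a median effect of 2.28 under salt in F6 and of -0.005 for salt history in F8, with the middle 50% between -0.12 and 0.08. By sign, 87 were higher and 91 lower with salt history, and none of the 178 was called (background 0%). The lowered transcripts had a median of -1.97 in F6 and of -0.03 in F8, with 12 higher and 15 lower and none called. Over all transcripts the median was -0.003 and 48.7% were above 0. At an unadjusted p under 0.05 there were 19 raised (10.7%) and 5 lowered transcripts (18.5%), against 5.74% of all.

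The intervals were set against the size of the F6 response. They hold the sum of salt history and any shift between the sets of arrays. For all 178 raised transcripts the 95% interval of the F8 effect lay below 50% of the F6 difference, and for 169 it lay below 25%. Among the lowered transcripts this held for 26 and 25 of 27. With the set of arrays as a term the counts fell to 162 and 106 for the raised and to 26 and 22 for the lowered transcripts, with the median 95% interval of the raised ones widening from 0.23 to 0.45 on either side. Of the raised transcripts, 177 had an interval within 1 of no change. The exception was LOC_Os04g56430, whose F8 effect was also the highest of the list. The F6 differences used as the yardstick come from the arrays that chose the list, which tends to make them too large. Within the set of arrays that NSb replicate 3 shares with NSbsalt, the median was 0.04 for the raised and 0.02 for the lowered transcripts.

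**Figure D4:**
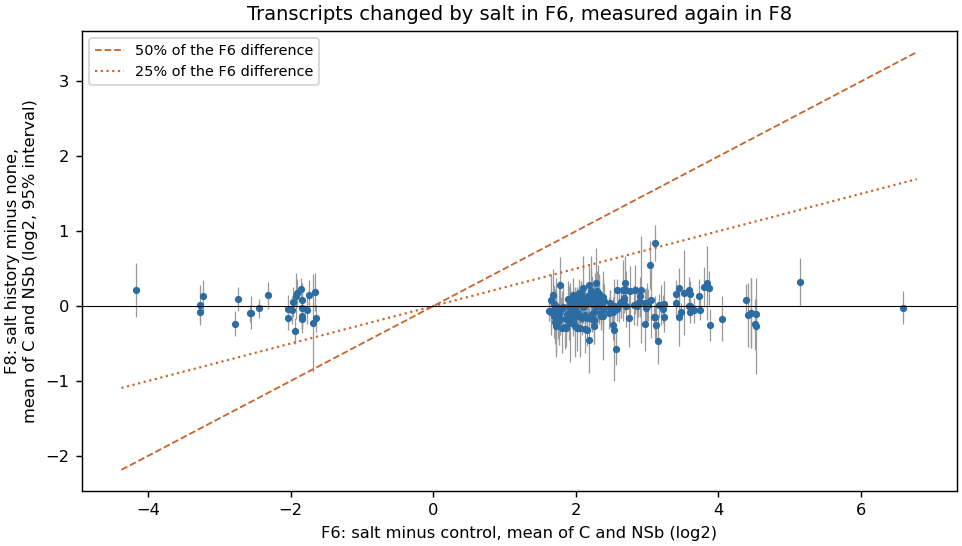
Salt history effect in F8 (vertical axis, log2, mean of C and NSb, with its 95% interval) against the salt effect in F6 (horizontal axis, log2) for the 178 raised and 27 lowered transcripts. Points gather around 0 at every size of the F6 effect, and the intervals of the raised transcripts all stay below the dashed line at 50% of the F6 difference.

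The strongest salt-induced transcript, LOC_Os12g14440, encodes a jacalin-like lectin, a carbohydrate-binding protein of a family with stress-induced members. It had risen by 6.58 under salt. In F8 it read between 2.25 and 2.73 on all 12 arrays, and the effect was -0.02 ± 0.10 (SE). The dehydrins RAB21 and RAB16B and the LEA protein LEA19, which protect proteins and membranes in drying cells, had risen by 3.58, 3.22 and 3.74. Their F8 effects were -0.0003, -0.04 and -0.05, with every pool between 2.01 and 2.67. P5CS2, an enzyme of proline synthesis, had risen by 2.07 and had an F8 effect of 0.05. Among the other extremes, the thaumatin LOC_Os12g43380 (4.52 in F6) was at -0.11, the proteinase inhibitor LOC_Os01g42860 (4.53) at -0.26 (-0.44 without NSb replicate 3), and the protein phosphatase PP2C59 (3.88) at -0.25. The SCP-like extracellular proteins gave 9 raised transcripts, 2 of them with values identical to another on every array, and their F8 effects lay between -0.25 and 0.05.

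The ribonuclease T2 transcript LOC_Os09g36680 was the second most raised in F6 (5.14). In F8 it read 5.17, 5.65 and 5.13 in NSb and 6.31, 6.03 and 6.37 in NSbsalt, without overlap. In C it read 5.02, 5.48 and 5.79 and in Csalt 5.42, 5.0 and 5.04. The effect was 0.92 in NSb, -0.28 in C and -1.56 in Ta, and the difference between NSb and C had an adjusted p of 0.817. Without NSb replicate 3 the NSb effect was 0.82, and against that array alone 1.1. Besides LOC_Os04g56430, the groups of 6 pools did not overlap for the wound-induced protein LOC_Os11g37950 (0.22, and 2.58 in F6) and the peptide chain release factor LOC_Os05g31020 (0.14, and 2.01 in F6). Those 3 of 178 were all higher with salt history, as were 0.0966% of all transcripts. The proteinase inhibitor LOC_Os12g36240 had the second highest effect of the list, 0.55 ± 0.15, at an adjusted p of 0.826.

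Transcripts lowered by salt in F6 included nutrient and sodium transporters. NRT2.1, a high-affinity nitrate transporter, had fallen by 3.23 and NAR2.1, the partner protein it needs, by 2.58. Their F8 effects were 0.14 and -0.10. The sodium transporter OsHKT2;1, LOC_Os06g48810 (chr6:29537936-29540221, minus strand), which takes up sodium in roots, had fallen by 2.79. In F8 it read 8.16, 8.01 and 7.90 in C, 8.17, 8.06 and 8.05 in Csalt, 8.17, 8.17 and 7.86 in NSb, and 7.56, 7.39 and 7.62 in NSbsalt. The NSbsalt pools were the 3 lowest of the 12, and C and Csalt overlapped. The NSb effect was -0.54 with an adjusted p of 0.348, the C effect 0.07, and the difference between the lines had an adjusted p of 0.817. Without NSb replicate 3 the NSb effect was -0.64, and against that array alone -0.34. In the mean of both lines the effect was -0.24, and 0.02 with the set of arrays as a term. The dirigent protein LOC_Os10g18870 (-4.17 in F6) was at 0.22, the rhamnogalacturonate lyase LOC_Os08g44040 (-3.28) at 0.01, and ALN, the allantoinase of purine breakdown (-2.45), at -0.03.

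Gene lists matched by symbol gave the same count throughout. None of the 24 lists, 3 of them of tissue markers, had a called member in either direction (background 0%). The 20 lists with at least 5 members other than tissue markers had medians between -0.10 and 0.08, and the members reached from -0.45 to 0.34. Beside the counts that follow, 48.7% of all transcripts were above 0 and 5.74% had an unadjusted p under 0.05.

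**Figure D5:**
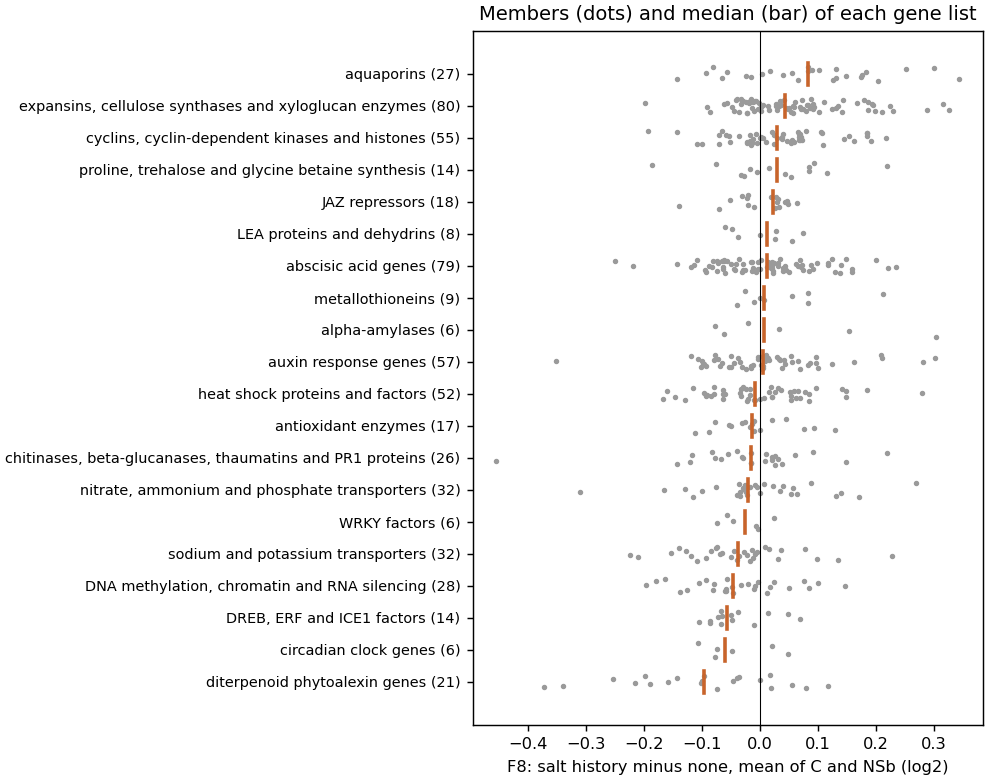
Salt history effect in F8 (horizontal axis, log2, mean of C and NSb) of the members of 20 gene lists, 1 list per row with its number of members in parentheses. Dots are members and the orange bar is the list's median. The medians lie between -0.10 for the diterpenoid phytoalexin genes and 0.08 for the aquaporins.

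Lists of genes often tied to the salt response had medians near 0 in F8. Under salt in F6 most of these medians had also moved little. The F6 medians were 0.02 for abscisic acid genes, 0.22 for antioxidant enzymes and 0.07 for heat shock proteins and factors. They were -0.12 for proline, trehalose and glycine betaine synthesis, and 0.71 for LEA proteins and dehydrins. The 79 abscisic acid genes had a median of 0.01 (-0.005 without NSb replicate 3), with 41 above 0, against 48.7% of all transcripts. At an unadjusted p under 0.05 (5.74% of all transcripts), 4 of these genes were higher and 3 lower. The phosphatase PP2C34 had the smallest p of them (-0.22 ± 0.060, adjusted p = 0.826), and NCED3, which encodes the enzyme of the committed step of abscisic acid synthesis, was at 0.23. The 8 LEA proteins and dehydrins had a median of 0.01 and effects from -0.06 to 0.07. Antioxidant enzymes (17) had a median of -0.01 (-0.04 without NSb replicate 3) and genes of proline, trehalose and glycine betaine synthesis (14) of 0.03 (0.007 without it). Heat shock proteins and factors (52) had a median of -0.01 (0.002 without it). HSP17.4, a small heat shock protein, was at 0.28 ± 0.075 (adjusted p = 0.826) and -0.39 in Ta.

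Aquaporins had the highest median of the 20 lists in NSb and C together, and the median was 0.15 in NSb and 0.01 in C. The shoot markers had medians of 0.10 in NSb and -0.03 in C, and their part in the aquaporin values was not tested. Aquaporins are channels that let water cross the plasma membrane (PIP) and the vacuole membrane (TIP). Of 27 members, 20 were above 0, against 48.7% of all transcripts, and 5 were higher and 0 lower at an unadjusted p under 0.05 (5.74% of all transcripts in either direction), with a median of 0.08 in the mean of both lines. TIP1;2 read 6.33, 6.55 and 6.94 in C, 6.85, 6.98 and 6.84 in Csalt, 6.66, 6.23 and 6.62 in NSb, and 7.05, 6.82 and 6.85 in NSbsalt. NSb and NSbsalt did not overlap, while C replicate 3 lay among the Csalt pools. The effect was 0.34 ± 0.11 with an adjusted p of 0.826. PIP2;5 was at 0.30, PIP2;4 at 0.25 and PIP1;3 at 0.15. Under salt in F6 these 4 had been at -0.55, -1.04, -1.30 and -0.15. The list's median was 0.06 without NSb replicate 3, 0.13 for NSbsalt against that array alone, and between 0.06 and 0.12 with each array left out in turn. In Ta, TIP1;2, PIP2;4 and PIP1;3 were at -0.10, -0.08 and -0.09, and PIP2;5 at 0.22.

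Sodium and potassium transporters (32) had a median of -0.04 with 8 above 0, and of 0.005 in C and -0.09 in NSb. Without NSb replicate 3 the median was -0.06. HAK1, a high-affinity potassium transporter, read 6.10, 5.96 and 6.0 in C, 5.92, 5.85 and 6.01 in Csalt, 5.93, 5.88 and 6.0 in NSb, and 5.60, 5.38 and 5.77 in NSbsalt. The NSbsalt pools were the 3 lowest, and C and Csalt overlapped. The effect was -0.22 ± 0.072 (adjusted p = 0.826). With the set of arrays as a term the list's median was 0.05. Nitrate, ammonium and phosphate transporters (32) had a median of -0.02, and the ammonium transporter AMT1-2 was at -0.31 ± 0.094, with -0.30 in C, -0.32 in NSb and 0.12 in Ta. A second probe set of AMT1-2 was at -0.02.

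Expression was also measured for 28 genes of DNA methylation, chromatin and RNA silencing. Their median was -0.05, and 8 were above 0, against 48.7% of all transcripts. An unadjusted p under 0.05 was reached by 1, against 5.74% of all transcripts. That one was AGO3, an Argonaute protein that binds small RNAs, at -0.20 ± 0.072 (adjusted p = 0.828). MET1, the methyltransferase that copies CG methylation after replication, read 5.05, 4.84 and 4.93 in C, 4.93, 4.53 and 4.85 in Csalt, 5.0, 5.0 and 4.87 in NSb, and 4.80, 4.88 and 4.62 in NSbsalt. The groups overlapped in both lines, and the effect was -0.18 ± 0.082 (adjusted p = 0.868). A second probe set of MET1 was at 0.05. The list's median was -0.04 without NSb replicate 3, -0.004 for NSbsalt against that array alone and 0.02 with the set of arrays as a term. Methylation and small RNAs themselves were not measured.

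For phytoalexin genes NSb replicate 3 moved the values. The 21 genes of diterpenoid phytoalexin synthesis, the antimicrobial compounds of rice, had a median of -0.10 with 5 above 0, and of 0.002 in C and -0.14 in NSb. Under salt in F6 the median was 0.43. DTC1, a diterpene cyclase, read 5.24, 5.15 and 5.41 in C, 5.16, 5.05 and 4.94 in Csalt, 5.33, 5.29 and 4.63 in NSb, and 4.42, 4.66 and 4.58 in NSbsalt. NSb replicate 3 read like the NSbsalt pools. The effect was -0.37 ± 0.12 (adjusted p = 0.826), -0.48 without that array, and -0.08 for NSbsalt against it alone. The list's median was likewise -0.15 without it and 0.05 against it alone, a change of direction, and 0.05 with the set of arrays as a term. PBZ1, a probenazole-induced PR protein raised by 2.18 under salt, was at -0.45 ± 0.20 (adjusted p = 0.866), with 0.004 for NSbsalt against NSb replicate 3. The 26 chitinases, glucanases, thaumatins and PR1 proteins had a median of -0.01, with 12 above 0.

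Of 80 expansin, cellulose synthase and xyloglucan enzyme genes, which loosen and build the cell wall, 52 were above 0, against 48.7% of all transcripts. Their median was 0.04 (0.02 without NSb replicate 3, and 0.13 with the set of arrays as a term). At an unadjusted p under 0.05, 4 were higher and 1 lower, against 5.74% of all transcripts in either direction. EXP14 was at 0.33 ± 0.11 in the mean, 0.33 in C and 0.32 in NSb (adjusted p = 0.826). Of 55 cyclin, cyclin-dependent kinase and histone genes 35 were above 0, against the same 48.7%. Their median was 0.03, and 0.007 without NSb replicate 3. Auxin response genes (57) had a median of 0.005. Their members IAA11 and IAA23, repressors of auxin response, were at 0.28 and 0.30, and IAA16 was at -0.35. The part of the shoot markers in these values was not tested either.

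Over all transcripts, 107 (0.195%) had groups of 6 pools that did not overlap, 53 higher and 54 lower with salt history. The 5 with the largest effects were LOC_Os04g56430, the probe set 15849880, and the unnamed probe sets 15787193 (-0.84), 15780363 (-0.82) and 15783987 (-0.68). None was called. Without NSb replicate 3 the counts were 120 and 161, over 6 pools against 5.

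The effects largest in size were in transcripts that varied most between pools. The 5489 transcripts with the highest standard deviation were also tested alone. In that fit the variance of a single transcript hardly counted (estimated prior degrees of freedom 717, against 3.39 in the main fit). There 7 transcripts were called in the mean of both lines, 2 lower and 5 higher, all of them unnamed. The lowest was probe set 15857001. It read 5.29, 4.02 and 4.11 in C, 3.99, 3.31 and 2.07 in Csalt, 4.70, 4.13 and 6.35 in NSb, and 4.61, 2.30 and 4.04 in NSbsalt. C and Csalt did not overlap, and NSb and NSbsalt did. Its effect of -1.38 ± 0.50 was made of -1.35 in C and -1.41 in NSb, with -1.36 in Ta and an adjusted p of 0.828 among all transcripts. Without NSb replicate 3 the effect was -0.77 in NSb and -1.06 in the mean. The highest, 15955424 (1.26 ± 0.56), read 2.67 and 2.60 in NSb replicates 1 and 2, 6.14 in NSb replicate 3, and 6.25, 5.52 and 5.29 in NSbsalt. There NSb replicate 3 read like the pools with salt history. For 15998232 the effect of 1.16 came with a single NSbsalt pool at 10.61, while the other 11 lay between 4.04 and 5.95.

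Ta, the transgenic line that carries the tagged OsICE1, gave the nearest comparison, and in it too the set of arrays coincided with salt history. The salt history effect in Ta differed from the mean of C and NSb in 0 of 54868 transcripts (0%) by limma on 18 arrays, with a smallest adjusted p of 0.0579 and 2931 at an unadjusted p under 0.05. In Ta itself 10 transcripts were called, 4 higher and 6 lower. The same fit of 18 arrays called 2 transcripts for the mean effect of C and NSb, 2 in NSb and 0 in C. The main fit, which called none in C or NSb, left out the arrays of Ta. More calls in Ta than in C and NSb do not show a difference between the lines, which the test of Ta against their mean did not find. Median effects of the F6 lists in Ta were -0.13 for the raised and 0.14 for the lowered transcripts, beside -0.005 and -0.03 in the mean of C and NSb.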

How the data were processed

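RNA from pools of whole seedlings was hybridised to Affymetrix RUSGene 1.1 ST arrays. In Affymetrix Expression Console, the authors obtained RMA signals per probe set. The deposited table holds these log2 values, used here without further scaling. The normalisation of RMA makes arrays alike in distribution, so a shift of most transcripts could not be seen. Versions are not given in the sources used here. Groups were taken from the sample titles.

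Group means were fitted with limma 3.58.1 in R 4.3.3 to the 12 arrays of C and NSb in F8 (18 with Ta), with moderated variances, 2-sided tests and Benjamini-Hochberg adjustment over 54868 transcripts. Calls needed an adjusted p below 0.05 and no minimum fold. The study's filter on the standard deviation and its 3-fold change for selected transcripts were tried as alternatives, as were a filter on low values, a fit of all 18 arrays, other variance models and leaving out each array. The fit was run on simulated data with independent noise and no shift between sets of arrays. That run could not test how such a shift acts on the results. Arrays give no counts, so the number of pools limits the precision, and p-values measure the spread between pools only.

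Transcripts were named through the array's platform annotation and RefSeq symbols (24080 with 1 symbol, 95 with several, 30747 with none), and 344 also carry a locus, description and MSU release 6 position from the study's annotation. The annotation holds few descriptions, so gene lists were matched by symbol. Of the probe sets, 4714 had values identical to those of an earlier one on all 12 arrays. Named transcripts were those called, the 10 with the smallest p for the mean effect and the 5 for each line and for the difference, those the study names for salt history, the 10 most raised and 10 most lowered in F6, up to 4 with the smallest p per gene list, and the 5 largest with groups that did not overlap. Others, such as those called under an alternative, list members beyond 4 and further members of the F6 lists, were chosen after their values were seen. The comparison, lists and members were chosen with earlier results of these data known. Figures used Python 3.11.15 and matplotlib 3.10.9.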

Additional observations from a re-analysis of the deposited data

Results flagged for a closer look

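The 54 probe sets left out of the comparison gave the one signal found outside it. Their mean was 0.90 higher on the log2 scale with salt history than without, in the mean of C and NSb, and 19 of the 54 were higher by more than 1 on the 9 arrays with salt history than on the 8 without it other than NSb replicate 3. The probe sets are unnamed and consecutive in number. NSb replicate 3, without salt history, read 5.07, at the level of the arrays with it (mean 5.16).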

How the results depend on the processing

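Most settings left the count of called transcripts at 0. It remained 0 for the mean effect, each line and the difference between them with robust variances, array weights, centring, identical probe sets counted once and a fold of at least 3. A filter on low values gave 1 call in NSb. The 10% of transcripts with the highest standard deviation gave 7 calls for the mean effect, 10 in NSb and 3 for the difference, and there the estimated prior degrees of freedom were 717 against 3.39, so single variances hardly counted. All 18 arrays gave 2 for the mean effect and 2 in NSb. Leaving out 1 array at a time gave 0 to 1 calls for the mean effect and 0 to 1 in NSb (1 without NSb replicate 3), 0 to 3 in C (3 without Csalt replicate 3, identical probe sets), 0 to 3 for the difference (3 without C replicate 3, identical probe sets), and 0 to 1 for Ta against the mean (1 without Ta replicate 1 and 1 without Ta replicate 3). The set of arrays as a term, chosen after seeing the data, gave 16 calls for the mean effect, 2 in C and 19 in NSb. It separates set from salt history by NSb replicate 3 alone. At the probe set 15983172 that array read 5.36, the other NSb pools 1.79 and 1.62, and NSbsalt 2.22, 1.63 and 1.81. Its mean effect was -3.68 with the term and -0.03 without that array. For the transcripts called for the mean effect with the term, the effects without that array lay between -0.24 and 0.20. The median of the transcripts lowered in F6 was 0.0398 for the 125 chosen at 2-fold, 0.0821 with that term and 0.0244 for NSbsalt against NSb replicate 3, where the raised ones had 0.0445. With each array left out it lay between -0.05 and 0.001 for the lowered and between -0.03 and 0.003 for the raised transcripts. Of 132 named transcripts, 28 changed sign in the mean effect under some alternative. Under some alternative 2 were called for the mean effect, and 5 for that or another contrast. With the replicate number as a block the counts stayed at 0, and the smallest adjusted p for the mean effect was 0.649. Same-numbered arrays did not deviate together (r from -0.02 to 0.12 over 18 pairs), so the numbers do not pair the pools. With 3 pools a group, differences under about 0.27 in a line lie within the median 95% interval.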
